A study of Mus musculus with 16 samples.

Results

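The CXC chemokines are small secreted proteins that steer leukocytes and other cells along a gradient, and 10 of their genes are described here in a model of the exchange between sympathetic nerves and pancreatic stroma. The members are Cxcl1, Cxcl2, Cxcl3, Cxcl5, Pf4, Cxcl9, Cxcl10, Cxcl12, Cxcl14 and Cxcl16, matched by gene symbol to the protein-coding rows of both deposited tables, 10 of 56941 genes and of 21684 protein-coding genes per table. They are 10 of the 15 CXC ligand genes the tables hold, and the other 5 (Cxcl11, Cxcl13, Cxcl15, Cxcl17 and Ppbp) are named where they bear on the members. The set was picked from gene names with their counts in these same libraries already known, and Cxcl3, Cxcl5, Cxcl10 and Pf4 had been named by the study from these libraries, so the tests below describe the libraries and give no independent evidence of a direction.

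RNA was sequenced in bulk from 16 libraries after about 70 hours of culture. SCG libraries came from explants of superior cervical ganglia, the sympathetic ganglia at the top of the neck, of C57BL/6J pups aged 1 to 4 days, with 8 to 13 explants in a well, so that a library pools ganglia. The explants grew alone (SCG, n = 3), below an insert with 10000 NIH 3T3 cells, a mouse embryonic fibroblast line that served as the control fibroblast (SCG+MEF, n = 3), or below an insert with 10000 mPSC1 cells (SCG+PSC, n = 4). PSC libraries came from mPSC1, 1 immortalized line of mouse pancreatic stellate cells, the fibroblasts of the pancreas that activate on plastic, grown alone (PSC, n = 3) or with explants (PSC+SCG, n = 3). The cells shared medium and had no contact, the medium held nerve growth factor, and no drug or genotype was compared. The methods name several experimental batches by date, but neither they nor the labels tie a library to a date or a litter, so p-values measure the spread between these libraries, which may be partly technical.

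CXC ligands fall into groups by structure and receptor. Those with the residues glutamate, leucine and arginine before the first cysteines (the ELR ligands Cxcl1, Cxcl2, Cxcl3, Cxcl5 and Ppbp) act through Cxcr2 and draw neutrophils, and nuclear factor kappa B (NF-kB) is a textbook inducer of several of them. Cxcl9, Cxcl10 and Cxcl11 act through Cxcr3 on T cells and are classic products of interferon signaling, Pf4 is platelet factor 4, stored by platelets and also made by some macrophages, and Cxcl12 is the constitutive ligand of Cxcr4 that fibroblasts and other stroma make. In injured peripheral ganglia and nerves, chemokines of these groups are known to take part in the recruitment of immune cells.

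Of the members, 7 lie on chromosome 5 of GRCm39. Cxcl5 (ENSMUSG00000029371, 90907186 to 90909483), Pf4 (ENSMUSG00000029373, 90918479 to 90922110), Cxcl3 (ENSMUSG00000029379, 90933962 to 90937459), Cxcl1 (ENSMUSG00000029380, 91039094 to 91040974) and Cxcl2 (ENSMUSG00000058427, 91051730 to 91053797) lie on the plus strand within 146.611 kb, with Ppbp between Cxcl5 and Pf4 and Cxcl15 between Cxcl3 and Cxcl1. Cxcl9 (ENSMUSG00000029417, 92469206 to 92475945) and Cxcl10 (ENSMUSG00000034855, 92494497 to 92496748) lie on the minus strand 1415.41 kb further on. Cxcl12 (ENSMUSG00000061353) is on chromosome 6 from 117144945 to 117158328, Cxcl14 (ENSMUSG00000021508) on chromosome 13 from 56436352 to 56444603 and Cxcl16 (ENSMUSG00000018920) on chromosome 11 from 70344517 to 70352620. No exon base of a member lay in another gene of the same strand. Transcripts of Cxcl2 and Cxcl3 share 126 stretches of 50 bases, of 2159 and 3587 such stretches, so a read within those stretches cannot be assigned to either gene by sequence, and no other ligand pair shared any.

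The promoters of Cxcl1, Cxcl2, Cxcl3 and Cxcl10 are shown so that the letters before the starts of these NF-kB and interferon targets can be read beside their counts. The bases are RefSeq's (assembly GRCm38.p6), which has a promoter for 8 of the 10 members, and each matched GRCm39 exactly at 1 place. Each is written 5′ to 3′ on the gene's strand, from 120 bases before RefSeq's start to 10 after it for the ELR ligands and from 250 before to 50 after it for Cxcl10. Capitals mark matches to the NF-kB motif (searched on both strands), to TATAAA (gene strand only) and, in Cxcl10, to the interferon-stimulated response element, searched on both strands as TTTC repeated after a gap of 2 bases.
Cxcl3, chr5:90933840-90933969, plus strand: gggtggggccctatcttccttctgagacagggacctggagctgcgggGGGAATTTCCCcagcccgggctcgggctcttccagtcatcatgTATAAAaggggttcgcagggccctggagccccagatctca
Cxcl2, chr5:91051638-91051767, plus strand: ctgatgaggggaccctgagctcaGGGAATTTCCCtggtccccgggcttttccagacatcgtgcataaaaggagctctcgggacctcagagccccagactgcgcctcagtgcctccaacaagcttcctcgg
Cxcl1, chr5:91038984-91039113, plus strand: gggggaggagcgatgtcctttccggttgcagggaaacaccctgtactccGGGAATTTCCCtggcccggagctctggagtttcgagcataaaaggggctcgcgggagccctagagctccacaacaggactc
Cxcl10, chr5:92496699-92496998, minus strand: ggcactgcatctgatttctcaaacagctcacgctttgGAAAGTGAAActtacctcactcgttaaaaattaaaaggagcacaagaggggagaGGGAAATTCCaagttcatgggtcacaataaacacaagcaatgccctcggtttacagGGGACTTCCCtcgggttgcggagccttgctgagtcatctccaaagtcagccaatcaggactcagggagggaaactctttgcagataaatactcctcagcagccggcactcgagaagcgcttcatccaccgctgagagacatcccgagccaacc

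The NF-kB match of Cxcl1, Cxcl2 and Cxcl3 has the same letters in the 3 genes, reads as a match on both strands, overlapping by all but 1 base at each end, and begins 71, 97 and 73 bases before the start. Cxcl10 has 2 NF-kB matches, 159 and 103 bases before the start, and an interferon element 213 bases before it. Of the 32851 promoters of the table, 4.51% held an NF-kB match, 3.44% the interferon element and 8.32% TATAAA. Among the members TATAAA was in Cxcl3, 30 bases before the start, and in Cxcl9, 195 bases before it, and the interferon element was also in Cxcl14, 172 bases before the start. Pf4 and Cxcl12 had no match to the 3 motifs in this window. A match describes letters only, and no binding was measured.

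Values are normalized counts, reads per gene divided by the library's DESeq2 size factor by the authors, and the explant and PSC tables were normalized apart. Reads on genes, recovered from the normalized counts of 14 of the 16 libraries, were 31900689 to 41632381, so a normalized count of 1 stands for about 1 read. The libraries matched their labels: the summed counts of 8 sympathetic neuron markers were 134740.0 to 295321 in SCG, 196149 to 273549 in SCG+MEF and 153656 to 276463 in SCG+PSC, and 2029.6 to 2704 in PSC and 2717 to 2818 in PSC+SCG, where Th and Dbh were at 0 to 3.85. Nearly all of the sum in PSC and PSC+SCG came from Tubb3 (1203 to 2139) and Hand2 (554 to 996). In PSCs the collagen genes Col1a1, Col1a2 and Col3a1 were among the fibroblast markers with high counts, but Lum was at most at 33. The explants hold more than neurons: glial, fibroblast, endothelial and macrophage markers were all present, and a lower value can mean fewer cells of a type or less RNA per cell, which bulk libraries cannot tell apart. Some libraries stood apart. SCG+PSC replicate 2 had the highest Isg15, Ifit3 and Irf7 of the explants (Isg15 3326 against 49.5 to 667 in the other 9), SCG+MEF replicate 3 had the highest Cxcl1, Cxcl9 and Cxcl10, and in PSCs the interferon-response genes followed the replicate number rather than the coculture.

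Each comparison was tested with limma on log2(normalized count + 1) fitted to the whole table, with p-values adjusted after Benjamini and Hochberg for every gene fitted. Passing the threshold meant an adjusted p no higher than 0.05 together with a log2 fold change no smaller than 0.5 in either direction. Because same-numbered libraries deviated together, the values with the replicate number as a block are printed wherever they change a call. SCG+PSC replicate 4 has no partner in that fit and carries no weight there. Against SCG, 1 of the 10 members was past the threshold in SCG+PSC without a block and 2 with it, where 0.0501% and 1.93% of the 15984 protein-coding genes tested were. In SCG+MEF the numbers were 0 and 1 members, beside 0.0188% and 0.238% of genes. Against SCG+MEF, 0 members were past it in SCG+PSC without a block, as were 0% of genes. With the block 0 members passed again, while 153 protein-coding genes were higher and 29 lower. In PSC+SCG against PSC, 0 of 7 members tested passed without a block and 1 with it, beside 0% and 0.523% of the 14541 protein-coding genes tested. Beside the counts of 0, 4 of 10 members had an unadjusted limma p under 0.05 in SCG+MEF against SCG. So did 435 of the 15984 protein-coding genes. In SCG+PSC against SCG+MEF it was 3 of 10 members and 628 of 15984 genes. In PSC+SCG against PSC it was 1 of 7 members and 205 of 14541 genes. In each of these 3 comparisons edgeR and DESeq2 on recovered reads called 0 members. In SCG+PSC against SCG, 6 of 10 members and 890 of 15984 genes had an unadjusted limma p under 0.05. All 10 members passed the filter on low values in explants. In PSCs, Cxcl2 and Pf4 were under the least sum of 10 and Cxcl14 was at 0.

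**Figure D1:**
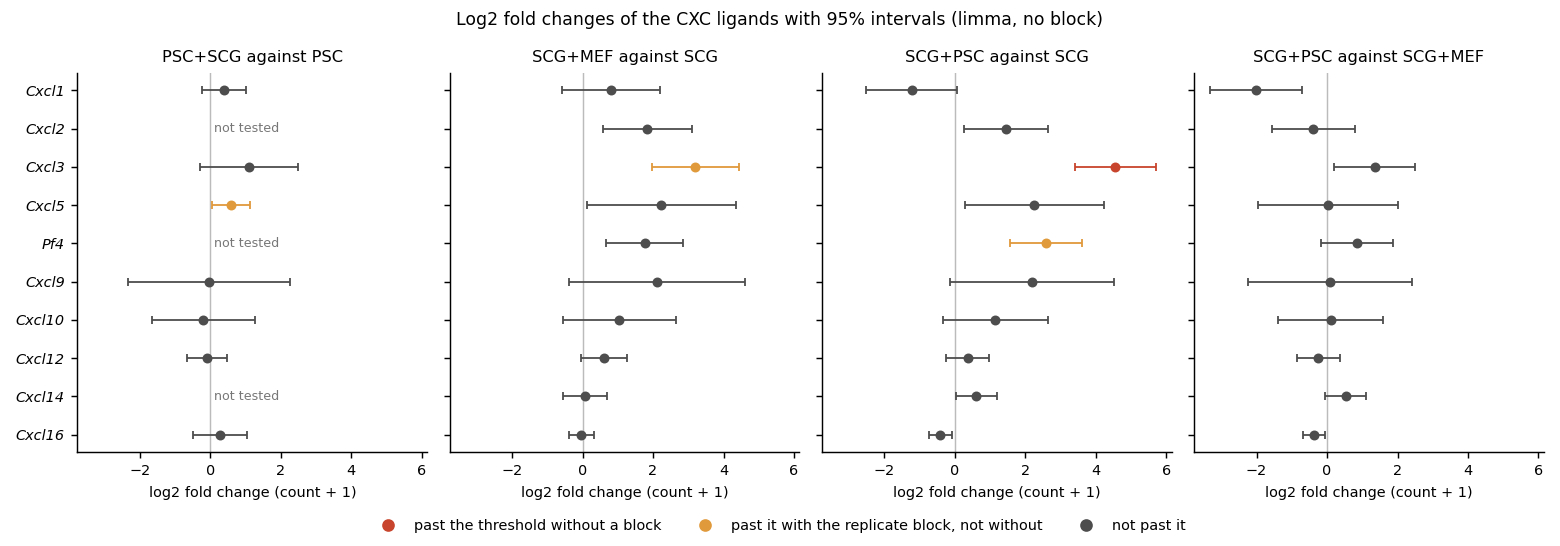
Log2 fold changes of the 10 CXC ligands in the 4 comparisons, on the log2(normalized count + 1) scale, with 95% confidence intervals from limma without a block (points, 1 per gene). Cxcl3 in SCG+PSC against SCG, at 4.56, passed the threshold without a block, while Pf4 in the same comparison, Cxcl3 in SCG+MEF against SCG and Cxcl5 in PSC+SCG against PSC passed it with the replicate block.

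By median level, Cxcl12 came first of the members in PSCs and second in explants, after Cxcl16, whose range there it overlapped. Levels between genes were compared per length, as normalized counts per kilobase of exon scaled to the same sum in every library. In PSCs the order of these per-length levels, by the median over 6 libraries, was Cxcl12 (773, range 467 to 963), Cxcl10 (568, 172 to 1223), Cxcl5 (65.7, 42.3 to 102), Cxcl1 (62.8, 43.4 to 95.1) and Cxcl16 (24.2, 13.4 to 34.7), with Cxcl9, Cxcl3, Cxcl2 and Pf4 below 3 and Cxcl14 at 0. The ranges of Cxcl12 and Cxcl10 overlapped, as did those of Cxcl5 and Cxcl1, whereas both of the first pair lay above both of the second and the second pair above Cxcl16. In explants the per-length levels were closer together: Cxcl16 had a median of 13.5 (9.94 to 17.4, 10 libraries), Cxcl12 10.4 (5.40 to 18.8), Pf4 7.88 (1.57 to 20.2), Cxcl14 7.45 (3.81 to 10.1) and Cxcl10 4.71 (1.24 to 18.1), each range overlapping that of its neighbour in the order. Cxcl1, Cxcl5, Cxcl2, Cxcl3 and Cxcl9 followed with medians of 1.31, 1.04, 0.708, 0.566 and 0.0501, and their ranges overlapped as well. The PSC and explant levels rest on separate normalizations and were not tested against each other.

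The ELR ligand Cxcl3 was nearly absent from explants grown alone and present in every cocultured explant library. Its normalized counts were 1.01, 0 and 0 in SCG, 18.2, 10.5 and 6.08 in SCG+MEF and 51.8, 14.2, 31.0 and 29.3 in SCG+PSC replicates 1 to 4. No library of either coculture overlapped with SCG, and SCG+PSC and SCG+MEF overlapped with each other. Cxcl3 rose in SCG+PSC against SCG with a log2 fold change of 4.56 (SE 0.52, limma adjusted p = 0.011), and with the block of 4.55 (adjusted p = 0.002). Over its alternatives the adjusted p ran from 0.0014 to 0.18, and leaving out SCG replicate 3 or SCG+PSC replicate 1, 3 or 4 put it at 0.058 to 0.062, with log2 fold changes of 4.28 to 4.55. The fitted value depends on the pseudocount, because the 3 SCG libraries held 1 read together: in recovered reads, 97 over SCG+PSC replicates 1 to 3 against that 1 gave a ratio of 98.6 with an exact 95% interval of 17.3 to 3935, which covers counting error only. In SCG+MEF against SCG the log2 fold change was 3.20 (SE 0.56, adjusted p = 0.28 without a block and 0.023 with it), from 36 reads against 1 (ratio 34.9, 5.87 to 1414), and it no longer passed with the block once SCG+MEF replicate 3 was left out (adjusted p = 0.11). SCG+PSC was above SCG+MEF by 1.35 (SE 0.52), unadjusted p = 0.025 and limma adjusted p = 0.9998, which did not pass.

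Cxcl2, next of kin of Cxcl3 by sequence, had counts of 7.09, 2.85 and 1.02 in SCG, 16.2, 8.76 and 16.2 in SCG+MEF and 9.59, 11.2, 17.1 and 5.04 in SCG+PSC. SCG+MEF lay above SCG throughout, and SCG+PSC replicate 4 fell below SCG replicate 1. The log2 fold changes were 1.45 (SE 0.54, limma adjusted p = 0.91) in SCG+PSC and 1.84 (SE 0.58, adjusted p = 1) in SCG+MEF, and neither passed. Cxcl5, the epithelial and stromal ELR ligand, had 2.02, 14.3 and 0 in SCG, 10.1, 52.6 and 7.10 in SCG+MEF and 6.71, 25.3, 16.0 and 24.2 in SCG+PSC, with the groups overlapping. Within each group replicate 2 held the highest value, and in the 3 same-numbered pairs both cocultures were above SCG. Its log2 fold changes of 2.26 (SE 0.90) and 2.24 (SE 0.97) did not pass, at limma adjusted p = 0.94 and 1, or 0.15 and 0.28 with the block. They were 1.34 and 1.31 without SCG replicate 3, 3.30 and 3.28 without SCG replicate 2, and 1.03 and 1.07 with a pseudocount of 8.

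The SCG+PSC value of Cxcl1 had the opposite sign. It had 31.4, 21.9 and 13.3 in SCG, 14.2, 41.2 and 86.2 in SCG+MEF and 6.71, 10.1, 4.27 and 16.1 in SCG+PSC, so the SCG+PSC libraries held the 3 lowest values of the 10 while SCG+MEF replicate 3 held the highest. In all 3 same-numbered pairs SCG+PSC was below SCG. The log2 fold change was -1.23 (SE 0.59, 95% interval -2.53 to 0.07, limma adjusted p = 0.99) against SCG and -2.03 (SE 0.59, unadjusted p = 0.0055, adjusted p = 0.9998) against SCG+MEF, and neither passed the threshold. Against SCG+MEF the value without SCG+MEF replicate 3 was -1.43.

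**Figure D2:**
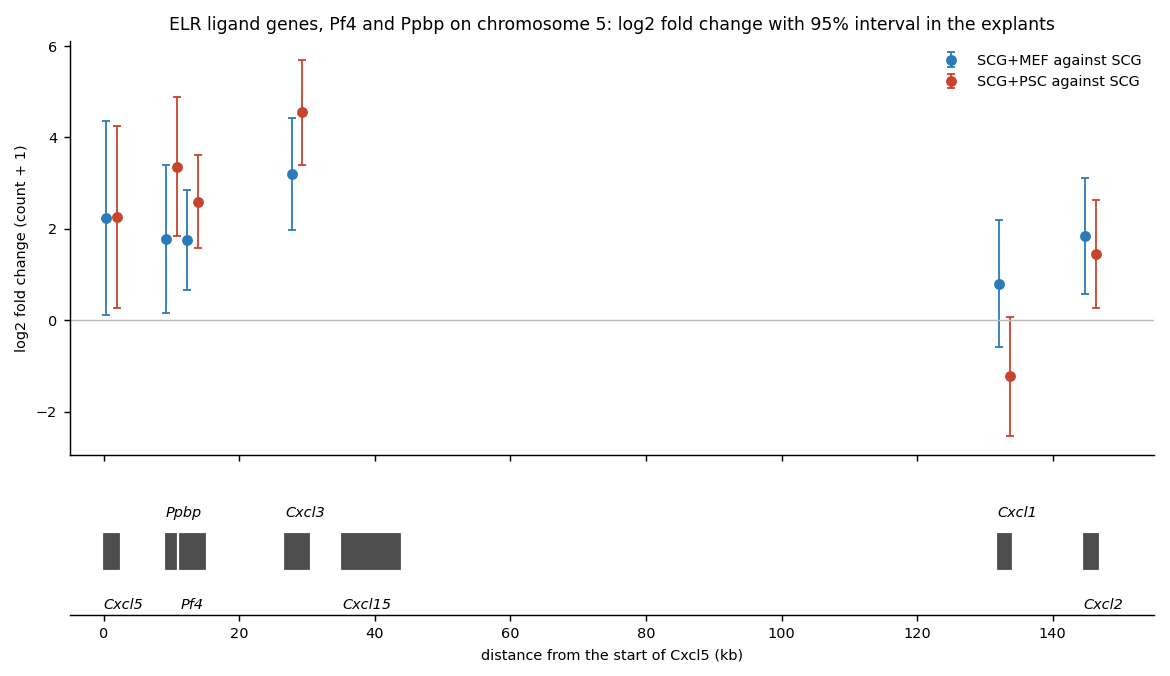
Log2 fold changes (points) with 95% confidence intervals in SCG explants, from limma without a block, against the distance in kb from the start of Cxcl5 for the chromosome 5 group, with the genes drawn to scale below. Cxcl5, Ppbp, Pf4, Cxcl3 and Cxcl2 lay above 0 in both cocultures and Cxcl1, between Cxcl15 and Cxcl2, lay at -1.23 in SCG+PSC and 0.80 in SCG+MEF. Cxcl15 was not tested.

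PSCs themselves held Cxcl1 and Cxcl5 in quantity and almost no Cxcl2 or Cxcl3. Cxcl1 had 655, 564 and 1010.5 in PSC and 891, 709 and 1324 in PSC+SCG, and Cxcl5 had 802, 555 and 905 and 1317, 813 and 1272. The groups overlapped for both genes, and in each same-numbered pair the cocultured library was higher. Cxcl5 had a log2 fold change of 0.59 (SE 0.24), with limma adjusted p = 0.9999 without a block and 0.019 with it, and Cxcl1 0.39 (SE 0.28, adjusted p = 0.9999, or 0.17 with the block). Cxcl3 was at 1.69, 1.14 and 3.85 in PSC and 9.89, 2.96 and 5.32 in PSC+SCG (log2 fold change 1.10, SE 0.62, adjusted p = 0.9999), and Cxcl2 was between 0 to 1.97 in the 6 libraries. Cxcl3, the member past the threshold in ganglia without a block, was thus at under 10 counts in each PSC library, where the separately normalized SCG+PSC explants had 14.2 to 51.8.

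**Figure D3:**
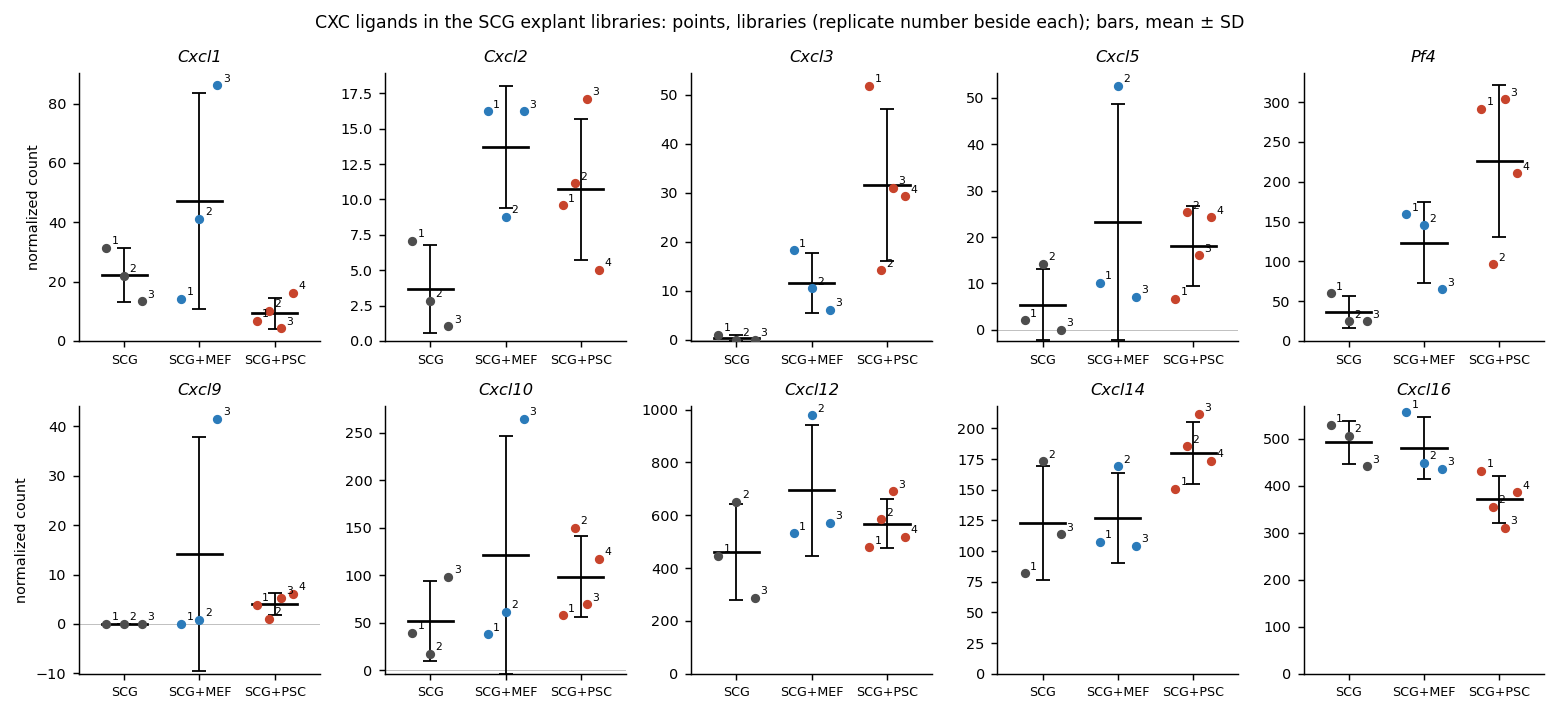
Normalized counts (linear y axes, 1 panel per gene) of the 10 CXC ligands in the SCG, SCG+MEF and SCG+PSC libraries. Points are libraries with their replicate number and bars are mean ± SD (n = 3, 3 and 4). Cxcl3, Pf4 and Cxcl9 were above every SCG library in all 4 SCG+PSC libraries, and Cxcl16 was below every SCG library.

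The gene of platelet factor 4 lies between those of Cxcl5 and Cxcl3 and had more counts in every cocultured ganglion library than in any SCG library. Pf4 had 59.7, 24.7 and 24.6 in SCG, 159, 145 and 64.9 in SCG+MEF and 292, 96.3, 303 and 211 in SCG+PSC. SCG+PSC overlapped with SCG+MEF through its replicate 2. The mean was 226 ± 95.5 (SD, n = 4) in SCG+PSC against 36.4 ± 20.3 (SD, n = 3) in SCG, a log2 fold change of 2.60 (SE 0.47), with limma adjusted p = 0.19 without a block and 0.0087 with it. Without SCG+PSC replicate 2 the blocked adjusted p was 3.3e-04. In SCG+MEF it was 1.76 (SE 0.50, adjusted p = 1, or 0.15 with the block), and the difference between the cocultures, 0.84 (95% interval -0.18 to 1.86), did not pass. PSCs held almost none, with 0 to 5.32 counts in their 6 libraries.

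Ppbp, the platelet basic protein gene beside Pf4 and no member, was read beside it. Its counts were 0, 0 and 1.02 in SCG, 1.01, 2.63 and 10.1 in SCG+MEF and 14.4, 4.05, 24.6 and 13.1 in SCG+PSC, from 1 read in SCG to 42 in SCG+PSC replicates 1 to 3 (ratio 42.7, exact 95% interval 7.26 to 1726, counting error only). The log2 fold change in SCG+PSC was 3.35 (SE 0.69), with limma adjusted p = 0.35 without a block and 0.018 with it. The cells known for Pf4 were looked for through their other markers. Of 6 megakaryocyte and platelet markers, Gp9 was at 0 in all 10 explant libraries, Gp1bb and Gp6 were at 0 to 2.14, Treml1 at 0 to 5.26, Gp5 at 0 to 20.2 and Itga2b at 34.5 to 66.6. The 3 of them that were tested had log2 fold changes of -0.45 (Itga2b), 0.18 (Treml1) and 0.67 (Gp5) in SCG+PSC against SCG and did not pass, and the summed list was 50.2 to 79.0 in SCG, 51.7 to 61.8 in SCG+MEF and 42.6 to 65.6 in SCG+PSC. The 12 macrophage markers were well represented and their sum overlapped between the groups, 16773 to 26317, 18182 to 26284 and 16979 to 22869. Of these markers 0 passed without a block and 1 with it: Mrc1, the mannose receptor, had 149, 283 and 163 in SCG, 346, 361 and 266 in SCG+MEF and 390.4, 427, 452 and 513 in SCG+PSC (log2 fold change 1.22, SE 0.22, adjusted p = 0.19, or 0.0097 with the block). The most abundant of the list, Lyz2 and C1qb, had log2 fold changes of -0.21 and -0.23. In PSCs the macrophage markers Adgre1, C1qb, C1qc and Tyrobp were at 0 in the 6 libraries, as was the neutrophil marker Csf3r. Other macrophage markers had counts there: Cd68 127 to 217, Csf1r 51.1 to 179, Lyz2 15.4 to 46.5 and Mrc1 14.8 to 21.1. Of the 6 endothelial markers, 5 had positive log2 fold changes in SCG+PSC against SCG, and Emcn, the most abundant of them, had -0.48. The median was 0.86, and all 6 had an unadjusted limma p under 0.05, Emcn in the other direction. So did 890 of the 15984 protein-coding genes tested. Of the 6, 0 passed after adjustment, with or without the block. With the block and without SCG+PSC replicate 2, 1 of them passed (Cdh5, 0.59). Their sum was 3429 to 4344 in SCG, 3498 to 4379 in SCG+MEF and 3972 to 4192 in SCG+PSC. The part of macrophages, of Mrc1-positive cells or of endothelial cells in the Pf4 and Cxcl3 values was not tested.

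**Figure D4:**
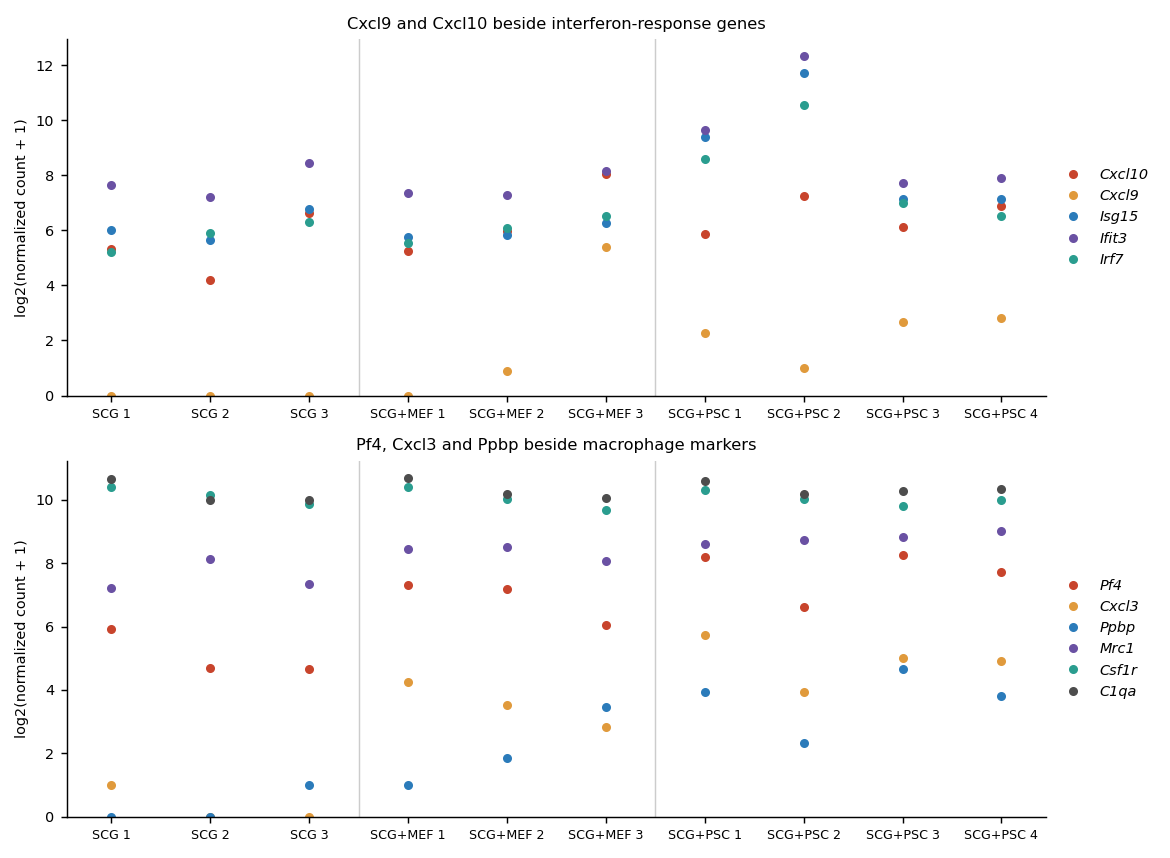
Log2(normalized count + 1) in the 10 explant libraries (x axis, by group and replicate number) of Cxcl9 and Cxcl10 with 3 interferon-response genes (top) and of Pf4, Cxcl3 and Ppbp with 3 macrophage markers (bottom). The interferon-response genes peaked in SCG+PSC replicate 2 and Cxcl9 and Cxcl10 in SCG+MEF replicate 3, and Pf4 and Cxcl3 were higher in every cocultured library than in SCG. Of the macrophage markers, Csf1r overlapped between SCG (929 to 1349) and the cocultures (819 to 1343). Mrc1 was above every SCG library in each SCG+PSC library, but not in each SCG+MEF library.

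The interferon-type ligands Cxcl9 and Cxcl10 overlapped between the groups of explants or rested on few reads. Cxcl10 had 39.5, 17.1 and 98.4 in SCG, 37.5, 61.3 and 265 in SCG+MEF and 57.6, 150.0, 69.4 and 117 in SCG+PSC, and the 3 groups overlapped. Its log2 fold change was 1.15 (SE 0.68, 95% interval -0.34 to 2.64, limma adjusted p = 0.9999) in SCG+PSC and 1.04 (SE 0.73, adjusted p = 1) in SCG+MEF. Leaving out 1 library, the SCG+MEF value ran from 0.23 (without its replicate 3) to 1.67 (without SCG replicate 3) and the SCG+PSC value from 0.55 (without SCG replicate 2) to 1.77 (without SCG replicate 3). Cxcl9 was at 0 in the 3 SCG libraries, at 0, 0.876 and 41.6 in SCG+MEF and at 3.84, 1.01, 5.34 and 6.05 in SCG+PSC. Every SCG+PSC library thus had Cxcl9 reads and no SCG library had any. The 10 reads of SCG+PSC replicates 1 to 3 stood at 3.39-fold a floor of 3 reads over the SCG group. That ratio leaves out the counting error of the 10 reads and the spread between libraries. The test did not pass (log2 fold change 2.19, SE 1.06, 95% interval -0.14 to 4.52, limma adjusted p = 0.99).

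Cxcl10 was set beside other interferon-response genes of the explants, library by library. Isg15 had 63.8, 49.5 and 108 in SCG, 53.7, 56.1 and 76.0 in SCG+MEF and 667, 3326, 139.9 and 140.2 in SCG+PSC, and Irf7, the interferon-induced transcription factor, had 36.4, 59.0 and 77.9, 45.6, 66.6 and 90.2 and 385, 1503, 125 and 91.8. Within SCG and within SCG+MEF the libraries had the same order by Cxcl10 as by Isg15. Within SCG+PSC both peaked in replicate 2, but the order differed: replicate 1, second by Isg15 at 667, had the lowest Cxcl10 of the group at 57.6. Across the groups, SCG+PSC replicate 2, with the highest Isg15, had the second highest Cxcl10 of the 10 libraries and the lowest Cxcl9 of its group, while SCG+MEF replicate 3, with the highest Cxcl9 and Cxcl10, had Isg15 within the range of SCG. Of the 14 genes in the interferon response list, 0 passed in SCG+PSC against SCG without a block and 3 rose with it, Irf7, Irf9 and Gbp2 (adjusted p = 0.03, 0.022 and 0.016), and 2 (Irf9 and Gbp2) with the block once SCG+PSC replicate 2 was left out. The median log2 fold change of the list was 1.07 in SCG+PSC and 0.09 in SCG+MEF, beside 0.01 and 0.03 over all protein-coding genes tested, and 0.58 in SCG+PSC without its replicate 2. Isg15 and Ifit3 are named here after their values were seen. The part of these genes in the Cxcl9 and Cxcl10 values was not tested.

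In PSCs Cxcl10 was the second ligand by level and followed the replicate number. It had 7145, 19044 and 5055 in PSC replicates 1, 2 and 3 and 10311, 15309.7 and 2874 in PSC+SCG, so replicate 2 was highest and replicate 3 lowest in both groups. The log2 fold change was -0.20 (SE 0.64, 95% interval -1.66 to 1.26, limma adjusted p = 0.9999), and its sign turned without PSC replicate 2 or PSC+SCG replicate 3. Cxcl9, at 23.7, 49.9 and 10.6 and 51.4, 59.2 and 3.19, and Cxcl11, at 7.61, 21.6 and 3.85 and 11.9, 8.88 and 1.06, were also lowest in replicate 3 of both groups. So were Isg15 (14587, 22142 and 5323 in PSC, 11671, 19711 and 4161 in PSC+SCG) and Irf7 (10295, 16457 and 3434 and 9946, 16375 and 3108). None of the 14 interferon-response genes passed the threshold in PSCs, with or without a block, and 0 had an unadjusted limma p under 0.05. The labels tie no library to a culture date, so date and replicate number cannot be told apart here.

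**Figure D5:**
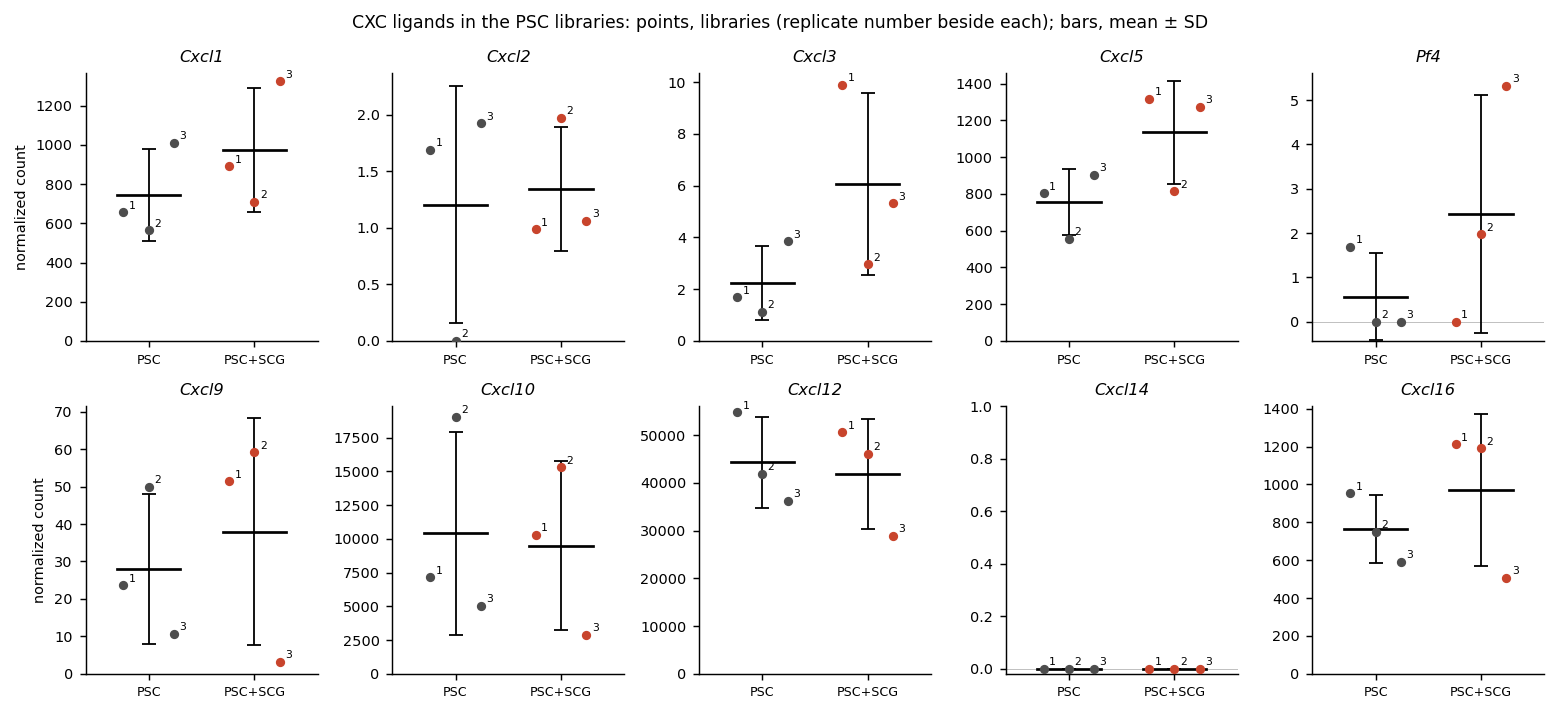
Normalized counts (linear y axes, 1 panel per gene) of the 10 CXC ligands in the PSC and PSC+SCG libraries. Points are libraries with their replicate number and bars are mean ± SD (n = 3 each). Replicate 3 held the lowest Cxcl10, Cxcl12 and Cxcl16 and the highest Cxcl1 of both groups, and Cxcl14 was at 0 in the 6 libraries.

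Cxcl12, the ligand of Cxcr4 and Ackr3, was the most abundant member of the stroma. It had 54778, 41824 and 36248 in PSC and 50599, 46063 and 28866 in PSC+SCG, at or above the 98.6th percentile of protein-coding genes per length, and coculture moved it by -0.10 on the log2 scale (SE 0.25, 95% interval -0.67 to 0.46, limma adjusted p = 0.9999). In explants it had 448, 651 and 287 in SCG, 532, 978 and 572 in SCG+MEF and 479, 584, 691 and 518 in SCG+PSC, with overlapping groups and log2 fold changes of 0.36 (95% interval -0.24 to 0.97) in SCG+PSC and 0.61 (-0.04 to 1.26) in SCG+MEF, neither past the threshold. Replicate 2 was highest in SCG and in SCG+MEF.

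Cxcl14, a ligand made in many resting epithelia, had counts in ganglia and none in PSCs. PSCs had 0 counts in all 6 libraries, against a floor of 3 reads (normalized counts of 2.54 to 3.41), whereas explants had 82.0, 173 and 114 in SCG, 107, 169 and 104 in SCG+MEF and 151, 186, 212 and 173 in SCG+PSC. SCG+PSC was above SCG in all 3 same-numbered pairs, with a log2 fold change of 0.60 (SE 0.27, limma adjusted p = 0.96, or 0.23 with the block) that did not pass, and SCG+MEF differed from SCG by 0.08 (95% interval -0.55 to 0.70). Cxcl16, a membrane-bound chemokine that Adam10 and Adam17 shed, had 529, 507 and 442 in SCG, 558, 448 and 436 in SCG+MEF and 432, 356, 311 and 386 in SCG+PSC. Every SCG+PSC library was below every SCG and every SCG+MEF library. The log2 fold change of -0.41 (SE 0.15) against SCG and -0.37 (SE 0.15) against SCG+MEF was smaller than the 0.5 asked for, with limma adjusted p = 0.89 and 0.9998, or 0.081 with the block against SCG. In PSCs Cxcl16 had 953, 749 and 592 in PSC and 1211, 1191 and 506 in PSC+SCG (log2 fold change 0.26, SE 0.34).

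Counted over the 10 members, groups did not overlap for 4 in SCG+PSC against SCG (Cxcl3, Pf4 and Cxcl9 above, Cxcl16 below), 3 in SCG+MEF against SCG (Cxcl2, Cxcl3 and Pf4, all above), 1 in SCG+PSC against SCG+MEF (Cxcl16, below) and 0 in PSC+SCG against PSC. The same held for 5.11%, 5%, 4.6% and 4.37% of the protein-coding genes tested. The median log2 fold change of the members was 1.30 in SCG+PSC and 1.40 in SCG+MEF against SCG, 0.05 between the cocultures and 0.26 over the 7 members tested in PSCs, beside 0.01, 0.03, -0.02 and 0.01 over all protein-coding genes tested. The members were picked with these counts known, and the genes beside them were not matched for level. The medians and counts therefore describe the set and give no evidence of a shared direction. The comparisons of SCG+PSC and SCG+MEF share the 3 SCG libraries, so their values are not independent of each other.

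The receptors for these ligands were unevenly present. Cxcr4 had 1003, 537 and 953 in SCG, 565, 500.1 and 953 in SCG+MEF and 647, 487, 756 and 778 in SCG+PSC, and at most 4.82 in PSCs, and it did not pass in any comparison. Ackr3, the scavenging receptor of Cxcl12, was in both: explants had 389.8, 373 and 359 in SCG, 391, 450.2 and 341 in SCG+MEF and 497, 594, 517 and 532 in SCG+PSC, and PSCs had 402, 135 and 196 in PSC and 579, 264 and 369 in PSC+SCG. SCG+PSC lay above the other explants throughout. The log2 fold change was 0.51 (SE 0.13) in SCG+PSC against SCG and 0.80 (SE 0.42) in PSC+SCG against PSC, with limma adjusted p = 0.61 and 0.9999 without a block and 0.048 and 0.018 with it. Without SCG+PSC replicate 2 the blocked value in explants was 0.49, at adjusted p = 0.17. Ackr1, the atypical receptor that binds ELR ligands, had 171 to 284 in explants and at most 0.989 in PSCs, and 25.7% of its exon bases lie in Cadm3 on the same strand. Cxcr1, Cxcr2, Cxcr3, Cxcr5 and Cxcr6 were at 0 to 5.12 in all 16 libraries. Cxcr2, the receptor of the ELR ligands, had at most 4.05 in explants and 3.41 in PSCs, and Cxcr3, the receptor of Cxcl9 and Cxcl10, at most 5.12 and 1.97. Of the other ligands, Cxcl13, Cxcl15 and Cxcl17 were at 0 in all explant libraries and Cxcl11 at 0 to 3.04.

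Of the genes around the chemokine pathway, few passed any test. Of 12 NF-kB feedback genes and partners, all tested in both tables, 0 passed in any comparison with or without a block. Their median log2 fold changes were 0.10 in SCG+PSC, 0.00145 in SCG+MEF and -0.00225 in PSC+SCG, and the most abundant in explants, Rela and Nfkb1, had -0.01 and 0.11 in SCG+PSC. Of 6 genes that cut or present chemokines (Dpp4, Adam10, Adam17, Mmp9, Sdc1 and Sdc4), 0 passed in any comparison, with or without a block, and 1 (Sdc4, 0.62) passed in SCG+PSC against SCG with the block once SCG+PSC replicate 2 was left out. Adam10 had 19138 to 27647 in explants and 6637 to 7949.5 in PSCs, and Sdc1 4791 to 7093 and 3342 to 4226. Neutrophils, the cells ELR ligands draw, were hardly seen: Retnlg was at 0 and S100a8, S100a9 and Ly6g at 0 to 4.06 in all explant libraries, and the summed list of 7 markers, nearly all Csf3r, was 80.9 to 118 in SCG, 60.4 to 113 in SCG+MEF and 40.3 to 70.0 in SCG+PSC. Of the markers of other cells in the ganglia, 0 of 8 neuronal genes passed in any of the 3 explant comparisons, with the block in those against SCG as well. In the same fits against SCG with the block, 1 of 7 fibroblast markers (Lum, 0.65) was higher in SCG+PSC, and 2 (Lum, 1.29, and Dcn, 0.74) were higher and 1 of 7 glial markers (Fabp7, -0.50) was lower in SCG+MEF. Without SCG+PSC replicate 2 this blocked fit had 3 fibroblast markers higher in SCG+PSC (Dcn, 0.68, Lum, 0.72, and Pdgfra, 0.70), and without SCG+MEF replicate 3 it had 0 higher in SCG+MEF. The summed fibroblast markers were 208256 to 390833 in SCG, 286399 to 405357 in SCG+MEF and 281765 to 390570.0 in SCG+PSC, and the part of cell makeup in the ligand values was not tested.

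The genes most like each member over the 10 explant libraries were found by the Pearson correlation of log2(normalized count + 1) among 12848 other protein-coding genes with a mean of at least 50, for the 6 members with a mean of at least 20. Cxcl14 was followed most closely by Fancd2, Mxd3, Mki67 and Aspm (r = 0.97 to 0.95). Pf4 was closest to Mmp8, Tmprss5, Cldn34c1 and Spint1 (0.94 to 0.92), Cxcl10 to Ccdc25, Nampt, Hycc2 and Adam23 (0.95 to 0.93) and Cxcl16 to Cln8, Olig1, Slc6a12 and Galnt15 (0.96 to 0.94). Cxcl12 was closest to Antxr1, Myef2l, Iqcc and Utp15 (0.93 to 0.87) and Cxcl1 to Atg4c, 3830406C13Rik, Bri3 and Smim19 (0.93 to 0.89). The points share their libraries and groups, and with 10 points the highest of so many correlations is high by selection alone, so these are descriptions.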

How the data were processed

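The authors aligned reads of the stranded mRNA libraries with STAR 2.7.10b to GRCm39, counted them by strand on genes of GENCODE M33, and divided each library by its DESeq2 1.38.3 size factor. The deposited values are this signal, normalized counts of 56941 genes, in 1 table for 10 explant libraries and another for 6 PSC libraries. Groups and replicate numbers came from the labels. The members and gene lists were chosen with earlier results of these data known.

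Log2(normalized count + 1) was tested with limma 3.58.1 (R 4.3.3, trend) on genes whose counts summed to at least 10 (23779 in explants, 21273 in PSCs), with Benjamini-Hochberg adjustment over all of them. This scale shrinks changes of low genes. The explant model held all 10 libraries. The study's model had a batch term, but no label ties a library to a batch. Deviations from group means correlated between same-numbered libraries at r = 0.23 to 0.47 (PSC and PSC+SCG), 0.25 to 0.37 (SCG and SCG+MEF) and 0.16 to 0.30 (SCG and SCG+PSC), so these numbers were taken to pair the libraries, and the replicate block is given where it changes a call. For SCG+MEF and SCG+PSC r was 0.097 to 0.21, and these groups were not taken as paired. The block fit still gave all explant libraries of the same number 1 shared effect.

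For 14 of 16 libraries values were whole multiples of 1 read's worth (tolerance 0.1, 100% of values), and these recovered reads went into edgeR 4.0.16 and DESeq2 1.42.0. PSC+SCG replicate 1 and SCG+PSC replicate 4 were not used there. Other alternatives were quantile normalization, a pseudocount of 0.5 or of 8, keeping only genes with 10 or more counts in 3 or more libraries, keeping every gene, the 2 groups alone, and leaving out each library. On simulated data with known changes, the test found 100 of 100 genes changed by a log2 fold of 2 and 55 (explants) or 47 (PSCs) of 100 changed by 1. The changed genes there had means above 50, all genes had the same dispersion, and no replicate effect was put in. In explants Cxcl1, Cxcl2, Cxcl3, Cxcl5 and Cxcl9 had lower means, so these numbers do not describe how well their changes are found.

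Named genes were all members, the other CXC ligands and receptors, from each list up to 4 genes past the threshold or the 2 most abundant, and for each member with a mean of at least 20 the 4 genes closest by Pearson r. Other genes named illustrate a list and were chosen after their values were seen. A few genes of the lists are not reported here. Coordinates, lengths and shared bases came from GENCODE M39 on GRCm39.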

Additional observations from a re-analysis of the deposited data

Results flagged for a closer look

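In the SCG+PSC group, the only group of 4 libraries, each gene's most distant library was checked by its gap to the nearest of the others over the group's whole range, against Dixon's 95% critical value. None of the 10 members passed it. Of the 89 genes of the members and lists with a group mean of at least 3, 7 did. The 1 in 20 of the critical value holds for independent, normally distributed values. These genes share their libraries and were checked on normalized counts, so the 7 cannot be set against that rate. In 5 of the 7 the library was SCG+PSC replicate 2, high in interferon-response genes: Gbp2 (0.932, at 879 against 419 to 449.9), Ifit3 (0.879, at 5111 against 210.4 to 806), Ifit1 (0.867), Isg15 (0.835) and Ifih1 (0.833). Icam1 (0.870) was high in replicate 4, at 334 against 166 to 188, and C1qc (0.865) high in replicate 1, at 1956 against 1493 to 1555. Cxcl10 in SCG+PSC replicate 2, at 150.0, was the highest of its group with a gap of 0.357 of the range.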

How the results depend on the processing

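The count of members past the threshold in SCG+PSC against SCG, 1 as reported, was 2 with the replicate block (Cxcl3 and Pf4), 2 with DESeq2 on recovered reads (the same 2), 2 with the block when SCG+PSC replicate 2 was left out (chosen after seeing the data), and 0 with a pseudocount of 8, with the 2 groups alone or with edgeR on recovered reads. Leaving out 1 library gave 0 to 1, with 0 without SCG replicate 3 or SCG+PSC replicate 1, 3 or 4. The block raised the count from 0 to 1 in SCG+MEF against SCG (Cxcl3) and in PSC+SCG against PSC (Cxcl5). It changed no other member's call. SCG+PSC against SCG+MEF, whose numbers were not taken as paired, stayed at 0 members under the block. Leaving out SCG+PSC replicate 4 or 3 is the same fit as using replicates 1 to 3 or 1, 2 and 4. The labels do not say which SCG+PSC libraries the study's model used.

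Some small differences changed sign. In SCG+PSC against SCG+MEF, Cxcl5 (0.02) was -0.16 with the block, -0.039 with a pseudocount of 8, -0.021 after quantile normalization, -0.56 with edgeR and -0.51 to 0.86 leaving out 1 library. In that comparison Cxcl9 (0.09) was -0.12 with the block, -0.36 with a pseudocount of 8, -2.0 with edgeR and -0.97 to 1.74 leaving out 1 library. Cxcl10 (0.11) was -0.011 with the block, -0.38 with edgeR, -0.39 with DESeq2 and -0.47 to 0.92 leaving out 1 library, and Cxcl12 (-0.25) -0.41 to 0.028. In PSC+SCG against PSC, Cxcl9 (-0.05) was 0.13 with a pseudocount of 8, 0.025 after quantile normalization, 0.17 with edgeR, 0.16 with DESeq2 and -0.72 to 1.20 leaving out 1 library. Leaving out 1 library gave -0.70 to 0.51 for Cxcl10 and -0.26 to 0.15 for Cxcl12 in PSCs, and -0.18 to 0.35 for Cxcl14 and -0.15 to 0.026 for Cxcl16 in SCG+MEF against SCG. The cause was not tested.

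Protein-coding genes past the threshold numbered 8 in SCG+PSC against SCG (308 with the block, 3 with the 2 groups alone or edgeR, 55 with DESeq2), 3 in SCG+MEF against SCG (38, and 5 after quantile normalization, 1 with the 2 groups alone, 21 with DESeq2), 0 in SCG+PSC against SCG+MEF (182 with the block, 18 with DESeq2) and 0 in PSC+SCG against PSC (76 and 2). Leaving out SCG+PSC replicate 4 gave 3 in SCG+PSC against SCG. Depth limits Cxcl2, Cxcl3, Cxcl5 and Cxcl9 in explants, where single libraries hold few reads or none.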
